A study of Mus musculus with 6 samples.

Results

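Integrins, laminins and collagens were followed through group 2 innate lymphoid cells (ILC2) of the mouse, in the thymus, in the mesenteric lymph node (MLN) and after culture with cytokines. The genes were chosen by symbol alone: every symbol that begins with Itga, Itgb with only a number, Lama, Lamb or Lamc with a number, or Col followed by a number, the letter a and a number. Of 81 such symbols, 76 had at least 1 count in the 6 libraries, out of 23871 genes with a count, and Col9a1, Col11a1, Col22a1, Col25a1 and Col26a1 had none. The 76 genes were 18 integrin alpha chains, 8 integrin beta chains, 11 laminin chains and 39 collagen chains.

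The cells of all 3 groups came from mice homozygous for an Id1 transgene, written Id1tg/tg. The transgene is driven by the proximal promoter of lck, and the line was made on FVB/N and then crossed onto C57BL/J for 10 generations or more. Id1 is an inhibitor of E protein transcription factors, and per the labels T cell development is blocked in these mice and the thymus produces ILC2 in excess. No group without the transgene was part of the comparison, so every value describes ILC2 of these mice only. ILC2 were sorted as Lin-Thy1+ST2+ cells. The cultured MLN group was kept for 1 week in culture; the treatment notes say that sorted ILC2 were cultured, whereas the design text says MLN cells, and which of these was done is not settled. The medium had IL-7, IL-33 and IL-25, each at 10 ng/ml. The thymus group and the fresh MLN group held sorted cells that were not cultured. Each group had 2 libraries from about 300000 cells per sample. Age and sex of the mice were not stated in those labels. Nothing says that the 2 samples of a group came from separate animals or cultures, so a p-value reflects the spread of the libraries, which may be technical.

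Integrins are adhesion receptors made of 1 alpha and 1 beta chain, and the pair of chains sets what the receptor binds: other cells' surface ligands, or matrix proteins such as fibronectin, laminin and collagen. Laminins are trimers of an alpha, a beta and a gamma chain that build the basement membrane, together with nidogens, perlecan and the network-forming collagens. In lymphocytes, integrins with beta 2, beta 1 and beta 7 chains serve homing and retention in tissues, whereas laminin and collagen chains are known chiefly as products of epithelial, endothelial and mesenchymal cells.

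The libraries held 35280692 to 40578264 counts, and the 76 genes took 0.662% to 0.736% of the counts in every one of them. Levels are given in CPM, the count of a gene relative to its library's total, scaled by TMM, a factor that aligns the bulk of genes between libraries. A count of 0 allows a level of up to 0.0739 to 0.0905 CPM, depending on the library (3 counts). Differences were tested with edgeR's quasi-likelihood test over 16231 genes that passed a filter on low counts, and a gene was called at a Benjamini-Hochberg adjusted p below 0.05. Fold changes are log2 values with their standard error. All 10 ILC2 and sort markers had counts. Gata3, a lineage factor of ILC2, had 1034 and 1064 CPM in cultured MLN, 648 and 673 CPM in thymus and 622 and 599 CPM in fresh MLN. Il1rl1, which encodes the sorted receptor ST2, had 2289 and 2342 CPM in cultured MLN, 1457 and 1444 CPM in thymus and 1885 and 1818 CPM in fresh MLN. Thy1, the other sort marker, had 107 and 119.6 CPM in cultured MLN, 726 and 736 CPM in thymus and 371 and 299.7 CPM in fresh MLN. Id1 itself had 1.48 and 1.19 CPM in cultured MLN, 422 and 426 CPM in thymus and 434 and 469 CPM in fresh MLN. Counts of the transgene and of the mouse's own gene are not separated by symbol. In bulk libraries, fewer cells of a kind and less RNA per cell cannot be told apart.

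The 4 families moved in different directions after culture. Laminin chains together held 2657 and 2811 CPM in cultured MLN libraries, 96.1 and 76.5 CPM in thymus libraries and 47.7 and 41.8 CPM in fresh MLN libraries. Collagen chains together held 1246 and 1187 CPM in cultured MLN libraries, 51.9 and 54.2 CPM in thymus libraries and 39.4 and 40.9 CPM in fresh MLN libraries. Both sums were many times higher in cultured cells, and nearly all of each came from a single gene, Lama5 for laminins and Col18a1 for collagens. Integrin alpha chains together held 1242 and 1289 CPM in cultured MLN libraries, 3201 and 2736 CPM in thymus libraries and 3364 and 3016 CPM in fresh MLN libraries. Integrin beta chains together held 2599 and 2597 CPM in cultured MLN libraries, 3508 and 3674 CPM in thymus libraries and 3191 and 3246 CPM in fresh MLN libraries. For both integrin sums the cultured libraries lay below all uncultured ones. These sums count long and short transcripts alike and carry no test.

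**Figure D1:**
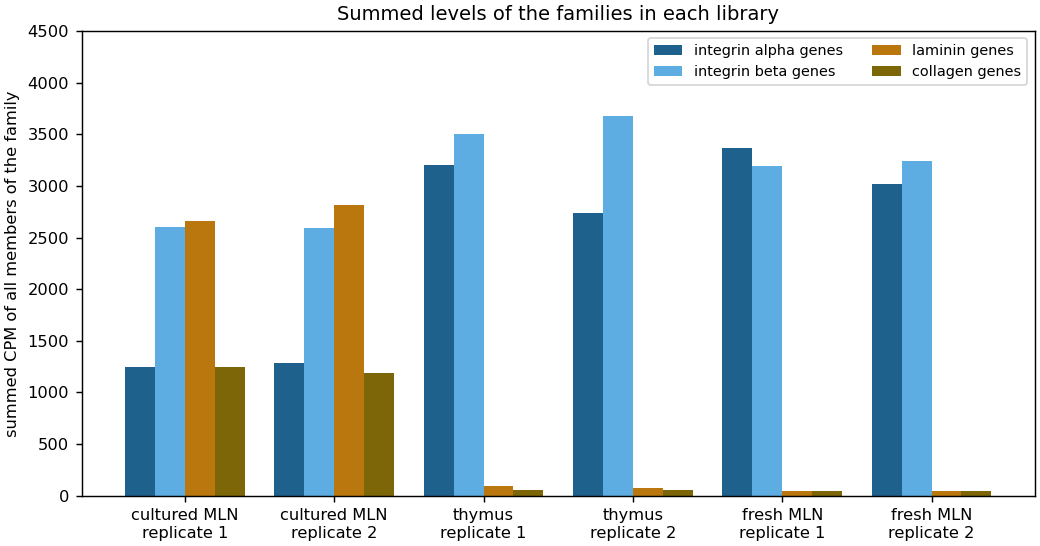
Summed CPM of the 4 families (bars, from 0) in each of the 6 libraries, from left to right cultured MLN, thymus and fresh MLN. Laminins reach 2657 and 2811 CPM and collagens 1246 and 1187 CPM in cultured MLN libraries, far above the others, and both integrin families lie lowest in cultured MLN libraries.

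Of the 76 genes, 49 passed the filter on low counts and were tested. A gene that is detected in 1 group only passes through that group, so such genes had to differ and their count is no support for any claim on the families. In cultured MLN against fresh MLN, 26 were higher, 16 lower and 7 not called, and 77.6% of all genes tested were called (39.4% higher, 38.1% lower). The median log2 fold change was 0.97 over the 49 and -0.01 over all genes tested. In cultured MLN against thymus, 27 were higher, 15 lower and 7 not called, against 72.7% of all genes tested called (34.8% higher, 37.8% lower), with a median of 0.90 over the 49 and -0.06 over all. In thymus against fresh MLN, 14 were higher, 13 lower and 22 not called, against 47.3% of all genes tested called (25.3% higher, 22.0% lower), with medians of 0.16 and 0. The libraries of the 2 groups did not overlap for 47, 44 and 38 of the 49 in the same order, beside 89.2%, 86.0% and 72.8% of all genes tested. The share of the 49 that was called, 85.7%, 85.7% and 55.1% in the same order, was not far above that of all genes, and the 3 comparisons share their libraries. The first 2 have the cultured libraries in common, the first and the third the fresh MLN libraries.

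**Figure D2:**
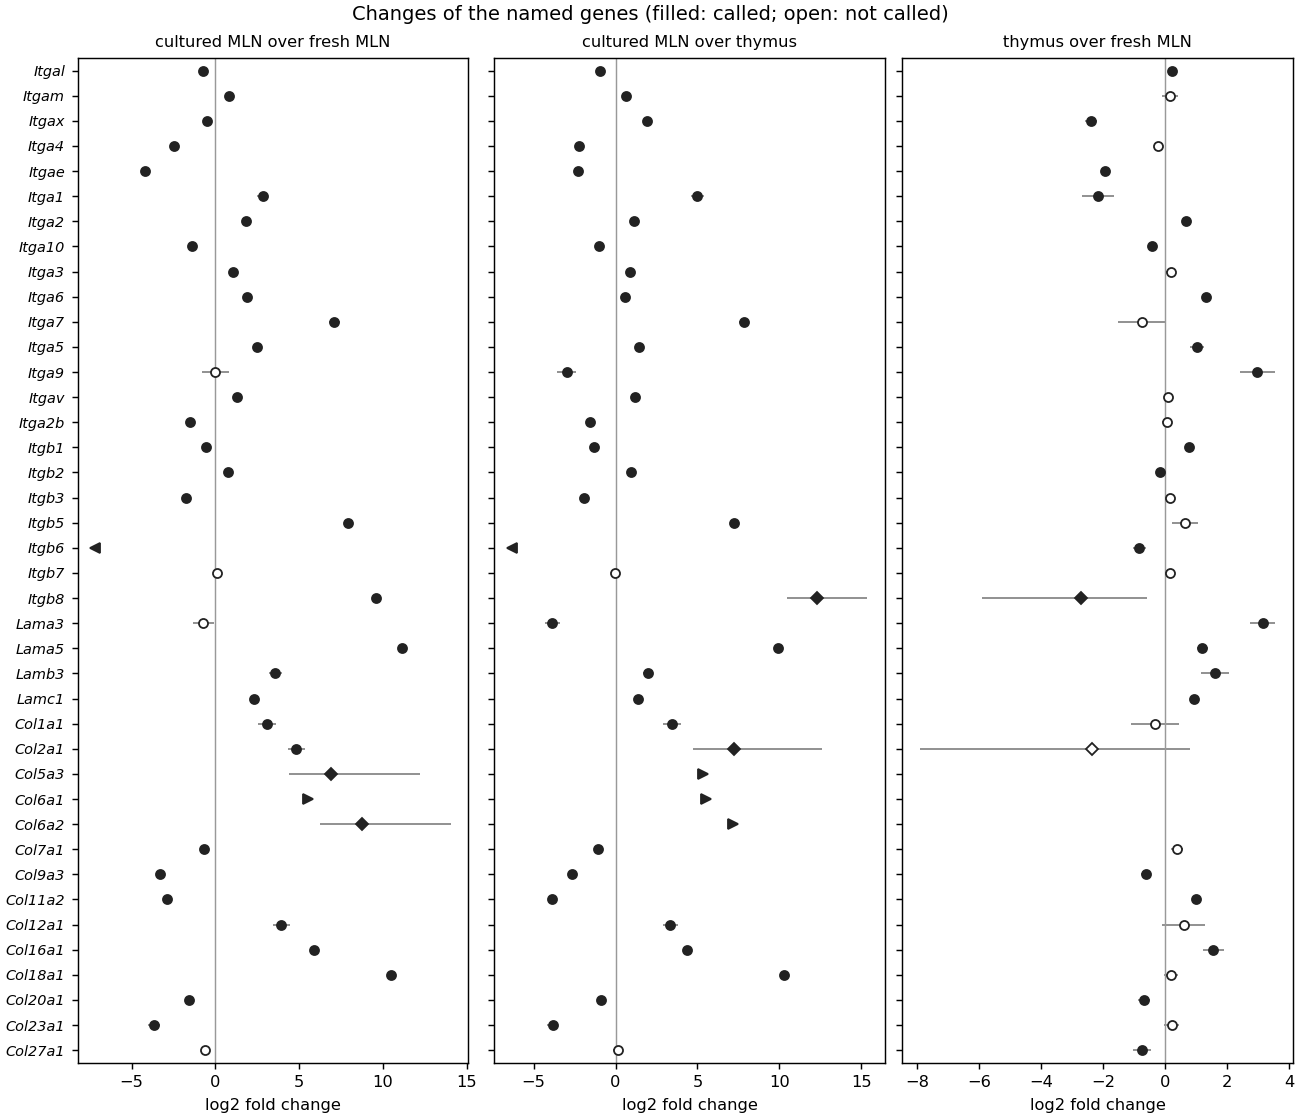
Log2 fold change of each named gene in the 3 comparisons, filled where called and open where not. Circles are fitted values with their SE; diamonds are ratios of counts with a 95% counting interval, used where a group had 1 to 3 counts; triangles are lower bounds on the size of a change, used where a group had no count. Genes with at most 3 counts in both groups of a comparison are left out of its panel. Most points lie within 5 log2 units of 0 in the cultured MLN panels. Lama5, Col18a1, Itgb8, Col6a2, Itgb5 and Itga7 are among those far to the right, Itgb6 lies far to the left, and the thymus panel spans a narrower range.

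Beta 2 integrins, the leukocyte-specific class that binds ICAM ligands and complement, changed unequally between their chains. Itgb2, the shared beta 2 chain, had 596 and 622 CPM in cultured MLN, 310.3 and 332 CPM in thymus and 373 and 358 CPM in fresh MLN, so the cultured libraries were the highest. It was higher in cultured MLN than in fresh MLN by 0.74 ± 0.07 and than in thymus by 0.92 ± 0.07. Itgal, its partner in LFA-1, the receptor for ICAM-1, had 521 and 516 CPM in cultured MLN, 1041 and 935 CPM in thymus and 893 and 819 CPM in fresh MLN, with the cultured libraries lowest and no overlap between groups. It fell by a log2 fold change of -0.72 ± 0.08 in cultured MLN against fresh MLN and of -0.93 ± 0.08 against thymus. Between thymus and fresh MLN, Itgal (0.21 ± 0.08) and Itgb2 (-0.19 ± 0.07) were both close to the threshold, with adjusted p = 0.042 and 0.041 by edgeR's quasi-likelihood test. The call of Itgal was lost with RLE or upper-quartile factors and by DESeq2, and that of Itgb2 with library totals alone. Both calls were lost without thymus replicate 1 (0.13 for Itgal, -0.13 for Itgb2) and without fresh MLN replicate 2 (0.14 and -0.22), that of Itgb2 also without fresh MLN replicate 1 (-0.15), and both when either cultured library was left out (adjusted p from 0.068 to 0.078).

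Itgax, which encodes the alpha chain CD11c, had 3.86 and 4.19 CPM in cultured MLN, 1.18 and 0.931 CPM in thymus and 5.42 and 5.82 CPM in fresh MLN. It was lowest in thymus libraries and fell there against fresh MLN (-2.40 ± 0.21); its cultured MLN level was above that of thymus (1.92 ± 0.21) and just below that of fresh MLN (-0.48 ± 0.18). The last call did not hold without cultured MLN replicate 1 (-0.42), cultured MLN replicate 2 (-0.53) or fresh MLN replicate 2 (-0.44). Itgam, which encodes the alpha chain CD11b, had 4.07 and 7.36 CPM in cultured MLN, 3.57 and 3.83 CPM in thymus and 3.21 and 3.45 CPM in fresh MLN. Its higher level in cultured cells (0.78 ± 0.24 against fresh MLN, 0.63 ± 0.24 against thymus) came from 1 library. Without cultured MLN replicate 2 these changes were 0.30 and 0.14 and neither was called. When thymus replicate 1 or 2 was left out, the change against thymus was 0.58 and 0.68, also not called. Both chains are markers of myeloid cells, and myeloid transcripts were measured in the same libraries. Their counts of calls stand beside 77.6% of all genes tested called in cultured MLN against fresh MLN (39.4% higher, 38.1% lower). Of 12 macrophage and monocyte markers, 10 were tested and 2 were higher and 7 lower in cultured MLN against fresh MLN, and the list summed to 20.9 to 21.7 CPM in cultured MLN, 6.999 to 12.0 CPM in thymus and 88.7 to 95.7 CPM in fresh MLN libraries. The fresh MLN sum was mostly Cybb, a subunit of the phagocyte oxidase, with 72.3 and 66.8 CPM there, and the cultured sum mostly Cd68 with 16.9 and 16 CPM. Of 10 dendritic cell markers, 6 were tested and 1 was higher and 4 lower in cultured MLN against fresh MLN, whereas the list summed to 45.8 to 48.8 CPM in cultured MLN, 19.2 to 22.0 CPM in thymus and 35.1 to 38.2 CPM in fresh MLN libraries. The dendritic cell sum in cultured MLN was mostly Xcr1, a chemokine receptor, with 38.8 and 33.4 CPM in cultured MLN, 7.39 and 10.2 CPM in thymus and 5.53 and 6.4 CPM in fresh MLN. Ccr7, the other leading gene, had 8.3 and 10.1 CPM in cultured MLN, 8.35 and 8.03 CPM in thymus and 8.99 and 8.42 CPM in fresh MLN, and Fscn1, an actin-bundling protein of mature dendritic cells, had 1.27 and 1.68 CPM in cultured MLN, 0.542 and 0.798 CPM in thymus and 14.4 and 17.4 CPM in fresh MLN. None of these markers was at 0 in all libraries. The part of such cells in the Itgax and Itgam values was not tested.

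Itgb7, which pairs with alpha 4 for homing to the gut and with alpha E for binding to epithelium, kept a like level in all groups while both of its alpha partners fell in culture. Itgb7 had 1169 and 1204 CPM in cultured MLN, 1163 and 1304 CPM in thymus and 1144 and 1063 CPM in fresh MLN. It passed the test in none of the 3 comparisons, with log2 fold changes of 0.10 ± 0.08, -0.06 ± 0.08 and 0.16 ± 0.08 in cultured MLN against fresh MLN, cultured MLN against thymus and thymus against fresh MLN. Without thymus replicate 1 the last of these was called at 0.25. With library totals in place of TMM, Itgb7 was called lower in cultured MLN than in thymus (-0.31). Itga4 had 358 and 413 CPM in cultured MLN, 1974 and 1615 CPM in thymus and 2261 and 2001 CPM in fresh MLN, with the cultured libraries far below the rest. It was 5.53-fold lower in cultured MLN than in fresh MLN (-2.47 ± 0.11) and 4.66-fold lower than in thymus (-2.22 ± 0.11). In thymus against fresh MLN its change of -0.25 ± 0.10 was not called, although both thymus libraries lay below both fresh ones. Of 15 alternatives, 6 called it lower in thymus. These were RLE factors, no filter on low counts, DESeq2, a replicate block (-0.25, adjusted p = 0.047 by edgeR's quasi-likelihood test), and leaving out thymus replicate 1 (-0.39) or fresh MLN replicate 2 (-0.34). Exons of Itga4 overlap those of Cerkl on the other strand, a gene with 851 counts over the 6 libraries.

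Itgae (ENSMUSG00000005947), which encodes CD103, the alpha E chain of tissue-resident lymphocytes that binds E-cadherin, was highest in fresh MLN, lower in thymus and lowest after culture. It had 3.26 and 3.97 CPM in cultured MLN, 17 and 17.8 CPM in thymus and 77.2 and 58 CPM in fresh MLN. These were 3 separate levels with no overlap. It was 3.89-fold lower in thymus than in fresh MLN (-1.96 ± 0.12), 18.6-fold lower in cultured MLN than in fresh MLN (-4.22 ± 0.15) and 4.79-fold lower in cultured MLN than in thymus (-2.26 ± 0.16). Cdh1, which encodes its ligand E-cadherin, had 0.573 and 0.524 CPM in cultured MLN, 13.9 and 12.8 CPM in thymus and 17.7 and 13.4 CPM in fresh MLN. It also fell in cultured MLN against fresh MLN (-4.82 ± 0.21) and against thymus (-4.60 ± 0.21), but was not called between thymus and fresh MLN. Per kilobase of exon, Itgb7 was the most abundant of the 76 genes in all 3 groups, at 428 CPM per kb in cultured MLN, 445 in thymus and 398 in fresh MLN. On that scale Itga4 stood at 27.6 in cultured MLN, 128 in thymus and 152 CPM per kb in fresh MLN, and Itgae at 0.789, 3.8 and 14.8 in the same order of groups.

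**Figure D3:**
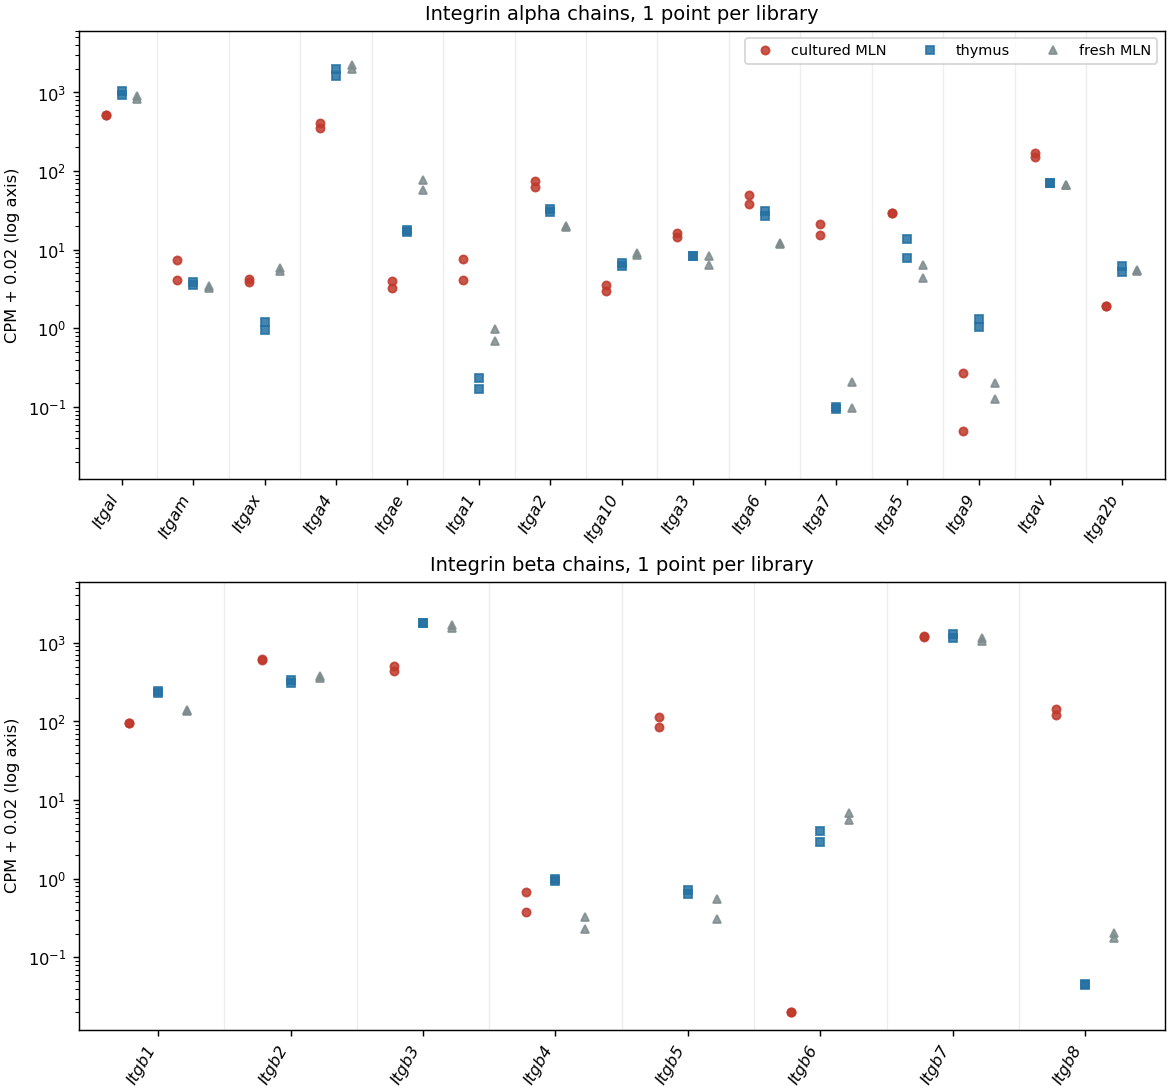
CPM of each named integrin chain in the 6 libraries on a log axis, 1 point per library, coloured by group, with a small constant added so that 0 can be drawn. Itgb7 lies at a like height in all groups, Itga4, Itgae and Itgb3 are lowest in cultured MLN libraries, and Itgb5, Itgb8 and Itga7 are present at over 10 CPM in cultured MLN libraries and below 1 CPM in the others.

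Chains that combine with alpha V changed in opposite directions in culture: Itgb3 and Itgb6 fell, and Itgb5 and Itgb8 rose. Alpha V receptors bind vitronectin and other ligands with the arginine-glycine-aspartate motif, and those with beta 6 and beta 8 are known for activating latent TGF-beta. Itgav had 169.7 and 152 CPM in cultured MLN, 71.5 and 69.7 CPM in thymus and 66.1 and 66.4 CPM in fresh MLN. It was higher in cultured MLN than in fresh MLN (1.28 ± 0.07) and than in thymus (1.19 ± 0.07); thymus and fresh MLN were not called apart. Itgb3 had 510.0 and 440.4 CPM in cultured MLN, 1800.1 and 1789 CPM in thymus and 1524 and 1682 CPM in fresh MLN. It fell 3.37-fold in cultured MLN against fresh MLN (-1.75 ± 0.09) and 3.78-fold against thymus (-1.92 ± 0.09), and thymus against fresh MLN was not called (0.16 ± 0.08). Before culture Itgb3 was second only to Itgb7 among the 76 genes per kilobase, at 80.5 CPM per kb in cultured MLN, 304 in thymus and 272 in fresh MLN.

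Itgb6, known mainly from epithelial cells, had 0 and 0 CPM in cultured MLN, 2.93 and 3.99 CPM in thymus and 6.86 and 5.52 CPM in fresh MLN. The 0 in both cultured libraries made it at least 144-fold lower than in fresh MLN, where the 2 libraries held 475 counts, and at least 79.6-fold lower than in thymus, where they held 269; these bounds set the cultured group at 3 counts. In thymus it was below fresh MLN (-0.84 ± 0.21), a call that did not hold without thymus replicate 1 (-0.63). Itgb5 (ENSMUSG00000022817) had 86 and 113 CPM in cultured MLN, 0.69 and 0.612 CPM in thymus and 0.54 and 0.292 CPM in fresh MLN, below 1 CPM in all uncultured libraries. It was 237-fold higher in cultured MLN than in fresh MLN (7.89 ± 0.20) and 152-fold higher than in thymus (7.25 ± 0.19). Itgb8 (ENSMUSG00000025321) had 142 and 121 CPM in cultured MLN, 0.0246 and 0.0266 CPM in thymus and 0.154 and 0.186 CPM in fresh MLN. It rose by 9.57 ± 0.17 in cultured MLN against fresh MLN, a 758-fold difference, and against thymus the ratio of 9081 to 2 counts was 5114 (95% counting interval 1415 to 42232) after scaling. At 28.1 and 11.9 CPM per kb, Itgb5 and Itgb8 remained below Itgb3 in cultured MLN. Between thymus and fresh MLN, Itgb8 rested on 2 against 13 counts; the call of a lower level there was lost without fresh MLN replicate 2 (-2.45), thymus replicate 1 (-2.52) or thymus replicate 2 (-2.62). The neighbours of both genes on the chromosome were also higher in cultured MLN than in fresh MLN, where 39.4% of all genes tested were called higher. Beside Itgb8, Abcb5 averaged 49.9 CPM in cultured MLN and 0 CPM in fresh MLN, and Macc1 0.359 CPM in cultured MLN and 0 CPM in fresh MLN. Beside Itgb5, Muc13 was higher in cultured MLN than in fresh MLN by 6.83 and Umps by 1.42.

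The other partner of Itgb3 is Itga2b, with which it forms the platelet fibrinogen receptor. Itga2b had 1.93 and 1.9 CPM in cultured MLN, 5.18 and 6.2 CPM in thymus and 5.42 and 5.5 CPM in fresh MLN. It fell in cultured MLN against fresh MLN (-1.51 ± 0.18) and thymus (-1.57 ± 0.18). Of 10 platelet and megakaryocyte markers only Gp1ba, lower in cultured MLN than in fresh MLN, and Gp5, higher there, passed the filter on low counts; the list summed to 3.95 to 4.71 CPM in cultured MLN, 3.40 to 4.24 CPM in thymus and 4.65 to 4.70 CPM in fresh MLN libraries. Treml1 was at 0 in all 6 libraries, and Pf4, an abundant platelet transcript, was at 0.0257 and 0.0531 CPM in fresh MLN libraries. The part of platelets in the Itgb3 and Itga2b values was not tested.

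The promoters of Itgb8 and Itgb5, and that of the laminin chain Lama5, are shown as examples. These genes were at 1.31 CPM or less in fresh MLN libraries and rose in culture. Others that did so, such as Col18a1, are not shown. Each window spans 250 bases before and 50 bases after the RefSeq start site (GRCm38.p6), and capitals mark E-boxes, CANNTG on either strand, the motif that E proteins bind and that Id1 keeps them from binding. The windows are Lama5 at chr2:180225810-180226109 on the minus strand, Itgb8 at chr12:119238227-119238526 on the minus strand and Itgb5 at chr16:33829415-33829714 on the plus strand.
Lama5: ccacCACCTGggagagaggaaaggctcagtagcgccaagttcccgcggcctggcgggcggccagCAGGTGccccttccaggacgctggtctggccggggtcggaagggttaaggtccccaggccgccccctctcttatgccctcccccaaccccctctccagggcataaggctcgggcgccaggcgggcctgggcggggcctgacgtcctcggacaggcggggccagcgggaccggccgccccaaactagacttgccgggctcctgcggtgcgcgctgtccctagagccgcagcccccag
Itgb8: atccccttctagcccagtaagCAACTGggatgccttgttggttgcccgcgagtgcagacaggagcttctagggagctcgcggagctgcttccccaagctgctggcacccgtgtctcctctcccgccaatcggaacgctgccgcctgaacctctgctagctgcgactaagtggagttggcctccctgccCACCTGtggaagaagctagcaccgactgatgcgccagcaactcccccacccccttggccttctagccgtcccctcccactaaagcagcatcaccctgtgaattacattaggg
Itgb5: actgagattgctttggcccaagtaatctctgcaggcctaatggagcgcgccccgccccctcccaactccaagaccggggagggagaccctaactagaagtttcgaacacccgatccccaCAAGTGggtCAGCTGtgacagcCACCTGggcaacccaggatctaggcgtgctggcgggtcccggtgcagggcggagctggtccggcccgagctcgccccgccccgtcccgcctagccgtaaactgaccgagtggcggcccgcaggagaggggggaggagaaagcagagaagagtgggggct
The search found 2 E-boxes in the Lama5 window, 2 in that of Itgb8 and 3 in that of Itgb5, and E-boxes occur in 72.3% of 32851 RefSeq promoter windows of 300 bases. AGATAA (the GATA motif, in 11.2% of windows), TTCNNNGAA (the STAT motif, 8.30%) and TGANTCA (the AP-1 motif, 7.81%), searched on both strands, were in none of the 3 windows. A match or its absence in these 300 bases describes the letters only. Of the 76 genes, 55 were in the RefSeq promoter table.

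Among alpha chains that pair with beta 1, the collagen-binding and laminin-binding chains and Itga5 mostly rose in culture, whereas beta 1 itself fell. Itga4, described above, can also pair with beta 1, and it fell in cultured MLN against fresh MLN (-2.47). At 27.6 CPM per kb in cultured MLN, Itga4 still stood above each of those chains, of which Itga2 was highest at 9.70. Itgb1 had 95.3 and 95.7 CPM in cultured MLN, 230.0 and 243 CPM in thymus and 141 and 137 CPM in fresh MLN, lowest in cultured libraries and highest in thymus. It fell by -0.54 ± 0.06 in cultured MLN against fresh MLN and by -1.31 ± 0.06 against thymus, and was higher in thymus than in fresh MLN by 0.77 ± 0.06. Among collagen-binding alpha chains, Itga2 had 62.6 and 75.8 CPM in cultured MLN, 32.5 and 30.2 CPM in thymus and 20.2 and 19.6 CPM in fresh MLN. Itga2 was higher in cultured MLN than in fresh MLN (1.80 ± 0.10) and thymus (1.14 ± 0.09), and in thymus than in fresh MLN (0.66 ± 0.10). Itga1, which encodes the alpha chain CD49a, had 4.1 and 7.55 CPM in cultured MLN, 0.148 and 0.213 CPM in thymus and 0.977 and 0.664 CPM in fresh MLN. It rose by 2.83 ± 0.32 in cultured MLN against fresh MLN and by 5.0 ± 0.41 against thymus. It was lower in thymus than in fresh MLN (-2.18 ± 0.52). Itga10 went the other way, with 3.53 and 2.98 CPM in cultured MLN, 6.21 and 6.78 CPM in thymus and 8.53 and 8.98 CPM in fresh MLN. It fell in cultured MLN against fresh MLN (-1.43 ± 0.16) and thymus (-1.0 ± 0.16). Its lower level in thymus than in fresh MLN (-0.43 ± 0.14) was not called without thymus replicate 1 (-0.36), fresh MLN replicate 1 (-0.46) or fresh MLN replicate 2 (-0.40). Itga11 stayed below 1 CPM, with 0.362 and 0.772 CPM in cultured MLN, 0.0986 and 0.0798 CPM in thymus and 0.308 and 0.292 CPM in fresh MLN. Its change in cultured MLN against thymus (2.63 ± 0.60) was not called without cultured MLN replicate 2 (1.98), and its change in thymus against fresh MLN (-1.71 ± 0.66) was not called when any single library was left out (-1.86 to -1.57) or with a replicate block (-1.71, adjusted p = 0.055 by edgeR's quasi-likelihood test).

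Among the laminin-binding alpha chains, Itga6 had 49.8 and 38.2 CPM in cultured MLN, 31.4 and 26.9 CPM in thymus and 12.1 and 11.7 CPM in fresh MLN. Its level was higher in cultured MLN than in fresh MLN (1.89 ± 0.13) and thymus (0.59 ± 0.12), and higher in thymus than in fresh MLN (1.30 ± 0.13). Itga3 had 16.3 and 14.6 CPM in cultured MLN, 8.26 and 8.3 CPM in thymus and 6.4 and 8.29 CPM in fresh MLN. It was higher in cultured MLN against fresh MLN (1.07 ± 0.14) and thymus (0.90 ± 0.14). Itga7 (ENSMUSG00000025348), known as the laminin receptor chain of skeletal muscle, had 15.6 and 21.2 CPM in cultured MLN, 0.0739 and 0.0798 CPM in thymus and 0.0771 and 0.186 CPM in fresh MLN. Both uncultured groups were at or near the limit of detection, and the cultured level was 137-fold that of fresh MLN (7.10 ± 0.30) and 230.0-fold that of thymus (7.85 ± 0.33). Without fresh MLN replicate 2, the change against fresh MLN was 7.83. Itgb4, which pairs with alpha 6 in the hemidesmosomes of epithelium, did not follow: it had 0.362 and 0.662 CPM in cultured MLN, 0.986 and 0.931 CPM in thymus and 0.308 and 0.212 CPM in fresh MLN. It was called only in thymus against fresh MLN (1.86 ± 0.43). Leaving out cultured MLN replicate 1 added a call in cultured MLN against fresh MLN (1.34), and leaving out cultured MLN replicate 2 added one against thymus (-1.39).

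Itga5, the fibronectin receptor chain, had 29 and 29.5 CPM in cultured MLN, 7.91 and 13.7 CPM in thymus and 4.34 and 6.32 CPM in fresh MLN. Itga5 was higher in cultured MLN than in fresh MLN (2.46 ± 0.22) and thymus (1.44 ± 0.20), and higher in thymus than in fresh MLN (1.02 ± 0.22). Itga9, which binds tenascin and osteopontin, was the alpha chain that stood out in thymus, with 0.0302 and 0.248 CPM in cultured MLN, 1.28 and 1.01 CPM in thymus and 0.18 and 0.106 CPM in fresh MLN. It was above fresh MLN there by 2.97 ± 0.56, and cultured MLN lay below thymus by -2.97 ± 0.57. The size of the last change depended on the cultured libraries, -2.19 when cultured MLN replicate 1 was left out and -5.10 when cultured MLN replicate 2 was, and cultured MLN against fresh MLN was not called (-0.00 ± 0.82).

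Lama5 (ENSMUSG00000015647), the alpha chain of laminin-511 and laminin-521 of adult basement membranes, had the largest fitted change of the 49 genes in cultured MLN against fresh MLN. It had 2437 and 2604 CPM in cultured MLN, 2.86 and 2.34 CPM in thymus and 1.31 and 0.956 CPM in fresh MLN, so the groups were separated by about 3 orders of magnitude. The rise was 11.11 ± 0.14 against fresh MLN and 9.92 ± 0.13 against thymus, or 2213-fold and 966-fold, and by fitted change it ranked 48 from the top among the 16231 genes tested against fresh MLN. At 221 CPM per kb in cultured MLN, against 0.228 in thymus and 0.0995 in fresh MLN, it stood second to Itgb7 among the 76 genes in cultured cells. Thymus was also above fresh MLN, at these low levels, by 1.20 ± 0.19. Its neighbours on the chromosome, Adrm1 and Rps21, were lower in cultured MLN than in fresh MLN, by -0.33 and -0.40.

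The gamma 1 chain, which Lama5 needs to form a trimer, was expressed in all groups. Lamc1 had 216 and 201 CPM in cultured MLN, 89.4 and 70.6 CPM in thymus and 44.5 and 39.3 CPM in fresh MLN. Its level was higher in cultured MLN than in fresh MLN by 2.31 ± 0.10 and than in thymus by 1.38 ± 0.10, and in thymus than in fresh MLN by 0.94 ± 0.10. The beta chains that would complete laminin-511 or laminin-521 were scarce: Lamb1 was not tested and reached at most 0.221 CPM in any library, and Lamb2 had 0.543 and 0.579 CPM in cultured MLN, 0.37 and 0.293 CPM in thymus and 0.154 and 0.239 CPM in fresh MLN. Lamb2 was called higher in cultured MLN than in fresh MLN (1.5 ± 0.48), but not without cultured MLN replicate 1 (1.55), cultured MLN replicate 2 (1.46) or fresh MLN replicate 1 (1.22). Lamb3, a chain of laminin-332 of skin, had 2.44 and 2.62 CPM in cultured MLN, 0.616 and 0.665 CPM in thymus and 0.308 and 0.106 CPM in fresh MLN. It was higher in cultured MLN against fresh MLN (3.58 ± 0.40) and thymus (1.98 ± 0.33). Without fresh MLN replicate 1 the change against fresh MLN was 4.53. Lamb3 was also higher in thymus than in fresh MLN (1.60 ± 0.46), a change that was 2.56 without fresh MLN replicate 1 and no longer called without fresh MLN replicate 2 (1.04).

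Lama3 and Lama4 were highest in uncultured cells, the one in thymus and the other in fresh MLN, both at low levels. Lama3, the alpha chain of laminin-332, had 0.0603 and 0.248 CPM in cultured MLN, 2.44 and 2.21 CPM in thymus and 0.206 and 0.319 CPM in fresh MLN. It was above fresh MLN in thymus by 3.14 ± 0.41 and below thymus in cultured MLN by -3.85 ± 0.45. The change against thymus was -3.21 when cultured MLN replicate 1 was left out and -5.19 when cultured MLN replicate 2 was. Lama4, the alpha chain of vessel walls, had 0.0603 and 0.0276 CPM in cultured MLN, 0.0986 and 0.0532 CPM in thymus and 1 and 0.797 CPM in fresh MLN. Lama4 was lower in thymus than in fresh MLN by -3.50 ± 0.54. In cultured MLN it held 3 counts, against 69 in fresh MLN, a ratio of 20.9 (95% counting interval 6.84 to 104) by which cultured was lower; the fitted change of -4.28 was -4.87 without cultured MLN replicate 1. Of the 7 laminin chains tested, 5 were higher and 1 lower in cultured MLN against fresh MLN, a share called of 85.7% beside 77.6% of all genes tested.

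**Figure D4:**
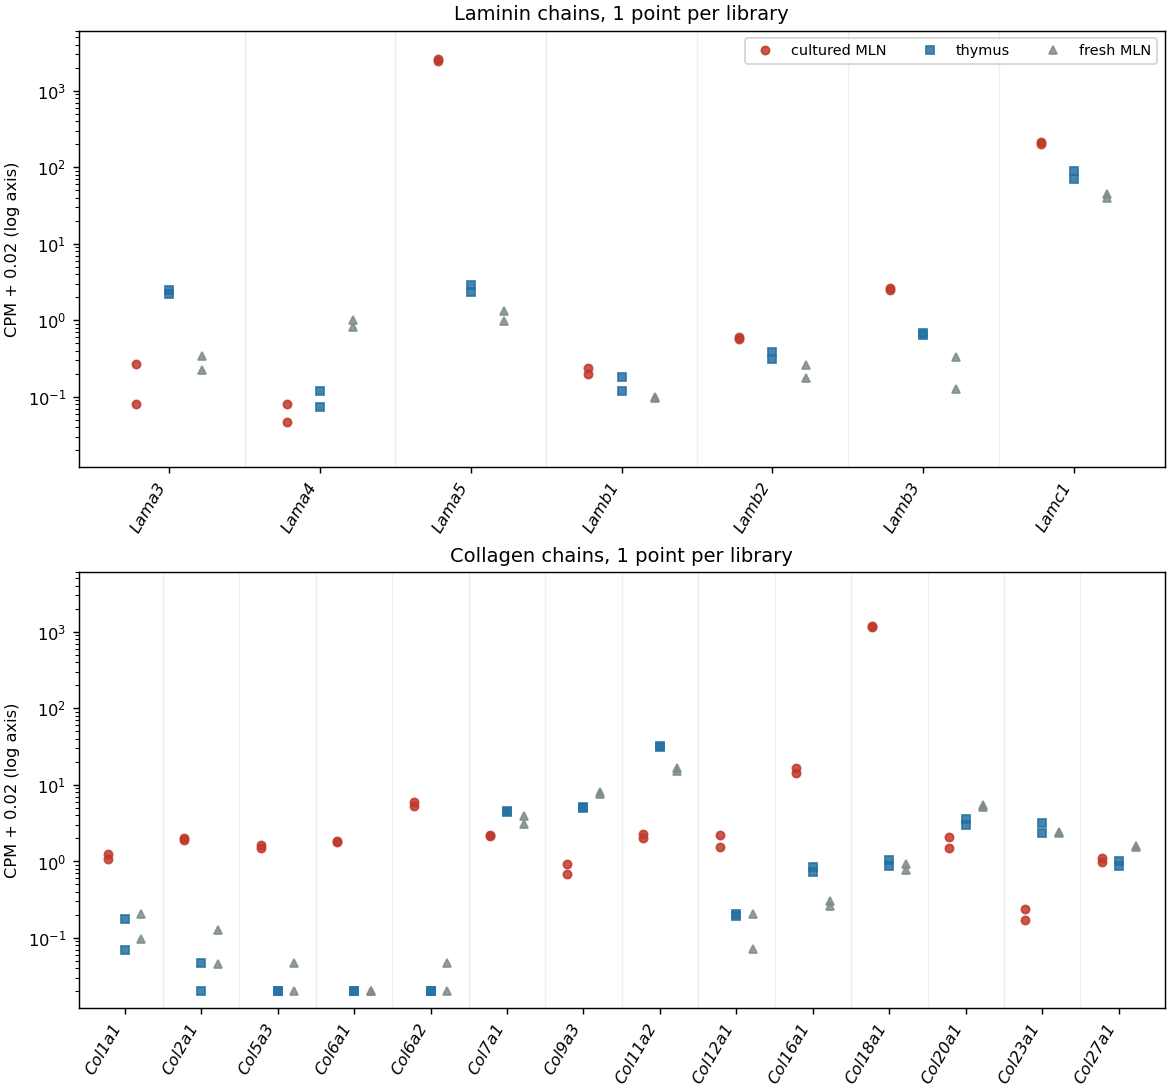
CPM of the named laminin and collagen chains in the 6 libraries on a log axis with a small constant added so that 0 can be drawn, 1 point per library, coloured by group. Lama5 and Col18a1 reach 2437 and 2604 CPM and 1205 and 1146 CPM in cultured MLN libraries and stay below 3 CPM in all others, and Col11a2, Col9a3 and Col23a1 are lower in cultured MLN libraries.

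Col18a1 (ENSMUSG00000001435), the basement membrane collagen whose C-terminal fragment is endostatin, accounted for nearly all collagen counts of cultured cells. It had 1205 and 1146 CPM in cultured MLN, 0.863 and 1.01 CPM in thymus and 0.899 and 0.744 CPM in fresh MLN. It rose 1424-fold in cultured MLN against fresh MLN (10.48 ± 0.12) and 1254-fold against thymus (10.29 ± 0.12). By fitted change it ranked 69 from the top among the genes tested against fresh MLN. Thymus and fresh MLN were not called apart. Per kilobase it held 167 CPM in cultured MLN, 0.133 in thymus and 0.117 in fresh MLN. Its neighbours Slc19a1 and Pofut2 were also higher in cultured MLN than in fresh MLN, by 1.11 and 0.53, and thus far less. Col16a1, a fibril-associated collagen, had 14.5 and 16.8 CPM in cultured MLN, 0.715 and 0.824 CPM in thymus and 0.283 and 0.239 CPM in fresh MLN. It rose by 5.89 ± 0.23 in cultured MLN against fresh MLN and 4.34 ± 0.19 against thymus. It was also higher in thymus than in fresh MLN (1.54 ± 0.33).

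6 further collagen chains were nearly silent in uncultured cells and reached 1 to 6 CPM in cultured ones. Col6a2, a chain of the microfibrillar collagen VI, had 5.88 and 5.27 CPM in cultured MLN, 0 and 0 CPM in thymus and 0 and 0.0266 CPM in fresh MLN. It was at least 145-fold higher in cultured MLN than in thymus, and against fresh MLN, with 386 counts to 1, the ratio was 426 (95% counting interval 76 to 16861). Col6a1, its neighbour and partner chain, had 1.81 and 1.76 CPM in cultured MLN, 0 and 0 CPM in thymus and 0 and 0 CPM in fresh MLN. It was at least 45.6-fold higher in cultured MLN than in fresh MLN and at least 46.6-fold higher than in thymus. Col5a3 had 1.63 and 1.49 CPM in cultured MLN, 0 and 0 CPM in thymus and 0 and 0.0266 CPM in fresh MLN. It was at least 40.5-fold higher in cultured MLN than in thymus and, with 108 counts to 1, by a ratio of 119 (95% counting interval 20.9 to 4748) higher than in fresh MLN. Col2a1, the fibrillar collagen of cartilage, had 1.9 and 2.01 CPM in cultured MLN, 0 and 0.0266 CPM in thymus and 0.0257 and 0.106 CPM in fresh MLN. It had a change of 4.84 ± 0.53 against fresh MLN and a count ratio of 153 (95% counting interval 27 to 6094) against thymus. Col12a1 had 2.2 and 1.52 CPM in cultured MLN, 0.173 and 0.186 CPM in thymus and 0.0514 and 0.186 CPM in fresh MLN. It had changes of 3.94 ± 0.49 and 3.35 ± 0.46 against fresh MLN and thymus. Col1a1, a chain of the main fibrillar collagen, had 1.24 and 1.05 CPM in cultured MLN, 0.0493 and 0.16 CPM in thymus and 0.0771 and 0.186 CPM in fresh MLN. It had changes of 3.09 ± 0.52 and 3.43 ± 0.55 against fresh MLN and thymus. Its partner Col1a2 had 0 and 0.0551 CPM in cultured MLN, 0.0246 and 0 CPM in thymus and 0.0771 and 0.106 CPM in fresh MLN and was not tested.

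The sizes of these changes rested on few counts in the uncultured groups. Against fresh MLN, leaving out fresh MLN replicate 1 gave 7.54 for Col6a2, 5.70 for Col5a3, 4.16 for Col2a1 and 3.29 for Col12a1, and leaving out fresh MLN replicate 2 gave 10.70 for Col6a2, 8.86 for Col5a3, 6.07 for Col2a1, 5.08 for Col12a1 and 3.82 for Col1a1, the first 2 then with no count left in fresh MLN. Against thymus, leaving out thymus replicate 1 gave 6.03 for Col2a1 and 2.81 for Col1a1, and leaving out thymus replicate 2 gave 9.19 and 4.44. All stayed called as higher. These nearly silent genes had passed the filter through the cultured libraries and could hardly lose that call, so this is no check on it. Col5a1, below 1 CPM in every library, had 0.513 and 0.965 CPM in cultured MLN, 0.271 and 0.186 CPM in thymus and 0.0514 and 0 CPM in fresh MLN. It held 52 counts in cultured MLN and 18 in thymus, against 2 in fresh MLN, ratios of 28.7 (95% counting interval 7.55 to 243) and 8.81 (95% counting interval 2.11 to 78.3). The fitted changes were 7.79 and 6.11 without fresh MLN replicate 1 and 3.76 and 2.09 without fresh MLN replicate 2, and thymus against fresh MLN was not called without fresh MLN replicate 2 or thymus replicate 1 (2.69). Its change in cultured MLN against thymus (1.68 ± 0.53) was not called without cultured MLN replicate 2 (1.15) or thymus replicate 2 (1.44). Col15a1, the closest relative of Col18a1, reached only 0.422 and 0.386 CPM in cultured MLN libraries, with 0.173 and 0.133 CPM in thymus and 0.0771 and 0.0531 CPM in fresh MLN libraries. It was higher in cultured MLN than in fresh MLN (2.57 ± 0.62), and its call against thymus (1.38 ± 0.52) was lost when any single library was left out (1.20 to 1.57).

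Other collagens were highest in uncultured ILC2, and Col11a2, Col9a3, Col23a1, Col7a1 and Col20a1 fell in cultured MLN against both fresh MLN and thymus. Col11a2, a minor fibrillar chain of cartilage, had 2.23 and 2.01 CPM in cultured MLN, 30.9 and 32.7 CPM in thymus and 15.3 and 16.7 CPM in fresh MLN. Per kilobase it was the highest collagen of the uncultured groups, at 4.63 CPM per kb in thymus and 2.33 in fresh MLN. It was 7.55-fold lower in cultured MLN than in fresh MLN (-2.92 ± 0.13) and 15-fold lower than in thymus (-3.91 ± 0.12), and higher in thymus than in fresh MLN (0.99 ± 0.09). Col9a3, a chain of the cartilage collagen IX, had 0.664 and 0.91 CPM in cultured MLN, 4.98 and 5.16 CPM in thymus and 8.04 and 7.6 CPM in fresh MLN. Its level was lower in cultured MLN than in fresh MLN (-3.30 ± 0.21) and thymus (-2.67 ± 0.21) and lower in thymus than in fresh MLN (-0.63 ± 0.16). Col23a1, a transmembrane collagen, had 0.151 and 0.221 CPM in cultured MLN, 2.32 and 3.16 CPM in thymus and 2.44 and 2.31 CPM in fresh MLN. It was lower in cultured MLN than in fresh MLN (-3.64 ± 0.36) and thymus (-3.85 ± 0.35). Col7a1, the anchoring fibril collagen of skin, had 2.17 and 2.12 CPM in cultured MLN, 4.53 and 4.36 CPM in thymus and 3.03 and 3.85 CPM in fresh MLN. Col7a1 was lower in cultured MLN than in thymus (-1.05 ± 0.20) and than in fresh MLN (-0.68 ± 0.20). Without fresh MLN replicate 2 the change against fresh MLN was -0.51 and not called.

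Col20a1 had 2.08 and 1.49 CPM in cultured MLN, 3.57 and 2.95 CPM in thymus and 5.4 and 5.07 CPM in fresh MLN. Its level was lower in cultured MLN than in fresh MLN (-1.56 ± 0.21) and thymus (-0.88 ± 0.22). Its lower level in thymus than in fresh MLN (-0.68 ± 0.19) was not called without thymus replicate 2 (-0.54) or fresh MLN replicate 1 (-0.63), and it shares 79 exon bases with another transcript on the same strand. Col10a1, the collagen of hypertrophic cartilage, had 0.422 and 0.165 CPM in cultured MLN, 0.296 and 0.452 CPM in thymus and 1.05 and 0.85 CPM in fresh MLN. It was lower in cultured MLN than in fresh MLN (-1.71 ± 0.47) and in thymus than in fresh MLN (-1.35 ± 0.44). The change in cultured MLN was -2.50 without cultured MLN replicate 1 and not called without cultured MLN replicate 2 (-1.16), and that in thymus was not called without thymus replicate 1 (-1.06) or fresh MLN replicate 1 (-1.18). In cultured MLN against thymus Col10a1 was not called (-0.36). Exons of Col10a1 overlap the far more abundant Nt5dc1 by 18 bases on the other strand. Col27a1 had 0.966 and 1.08 CPM in cultured MLN, 0.986 and 0.851 CPM in thymus and 1.59 and 1.51 CPM in fresh MLN. It was not called in cultured MLN against fresh MLN (-0.60) or thymus (0.15), and its call in thymus against fresh MLN (-0.75 ± 0.28) was lost when any single library was left out (-0.86 to -0.65).

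The remaining 28 genes, 22 collagens, 4 laminins and 2 integrin alpha chains, held between 1 and 117 counts over the 6 libraries together and at most 0.691 CPM in any library. Only Col8a2 among them passed the filter on low counts, and it was not called in any comparison. They include Lamb1 and Col1a2, named above, and Col3a1, a fibrillar chain of connective tissue, which had 0 and 0 CPM in cultured MLN, 0.0739 and 0 CPM in thymus and 0 and 0.0531 CPM in fresh MLN.

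Between thymus and fresh MLN ILC2, both uncultured, changes were smaller. Of genes with a mean above 1 CPM in the higher group, those higher in thymus were, from the largest change, Lama3, Itga9, Itga6, Lama5, Itga5, Col11a2, Lamc1, Itgb1, Itga2 and Itgal. Those lower in thymus were Itgax, Itgae, Itgb6, Col27a1, Col20a1, Col9a3, Itga10 and Itgb2. Of the 16 integrin alpha chains tested, 5 were higher, 5 lower and 6 not called. Of the 8 beta chains, 2 were higher (Itgb1 and Itgb4), 3 lower (Itgb2, Itgb6 and Itgb8) and 3 not called. Of the 7 laminins, 4 were higher and 1 lower, and of the 18 collagens 3 were higher and 4 lower. The shares called were 62.5% for both integrin families, 71.4% for laminins and 38.9% for collagens, beside 47.3% of all genes tested (25.3% higher, 22.0% lower).

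Genes that act with these families were followed in 5 lists, whose counts stand beside 77.6% of all genes tested called in cultured MLN against fresh MLN (39.4% higher), 72.7% in cultured MLN against thymus (34.8% higher) and 47.3% in thymus against fresh MLN (25.3% higher). A listed gene with hardly a count outside 1 group passed the filter through that group, so its call had to follow. Such genes also pull the medians, so the counts and medians of the 5 lists are no support for any claim on a list. Of 26 genes of collagen folding, crosslinking and processing, 21 were tested, and 17 were higher and 2 lower in cultured MLN against fresh MLN, with a median log2 fold change of 2.66 beside -0.01 for all genes tested. Against thymus 17 were higher and 3 lower (median 2.60, beside -0.06), and in thymus against fresh MLN 5 were higher, 1 lower and 15 not called (median 0.07, beside 0). P4hb, the beta subunit of prolyl 4-hydroxylase, averaged 2435 ± 25.5 CPM in cultured MLN, 401 ± 14.5 CPM in thymus and 264 ± 5.29 CPM in fresh MLN (SD, n = 2 each), a change of 3.20 ± 0.08 in cultured MLN against fresh MLN and of 0.60 ± 0.07 in thymus against fresh MLN. Loxl2, a lysyl oxidase that crosslinks collagen IV, averaged 170.3 ± 0.67 CPM in cultured MLN, 2.56 ± 0.423 CPM in thymus and 2.43 ± 0.701 CPM in fresh MLN, a change of 6.12 ± 0.13 against fresh MLN and 6.05 ± 0.13 against thymus. P3h3, a prolyl 3-hydroxylase family gene, rose by 5.58 ± 0.34 against fresh MLN and 5.16 ± 0.32 against thymus. Colgalt2, a collagen galactosyltransferase, fell in cultured MLN, with 0.159 ± 0.0305 CPM there, 10.2 ± 1.97 CPM in thymus and 5.52 ± 0.296 CPM in fresh MLN, by -5.09 ± 0.30 against fresh MLN and -5.97 ± 0.29 against thymus. Ppib, a collagen prolyl isomerase, was with P4hb and Colgalt2 among those higher in thymus than in fresh MLN (0.36 ± 0.09). Serpinh1, the collagen-specific chaperone HSP47, was not tested and had 0 and 0.0276 CPM in cultured MLN, 0.0246 and 0.0266 CPM in thymus and 0 and 0 CPM in fresh MLN.

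**Figure D5:**
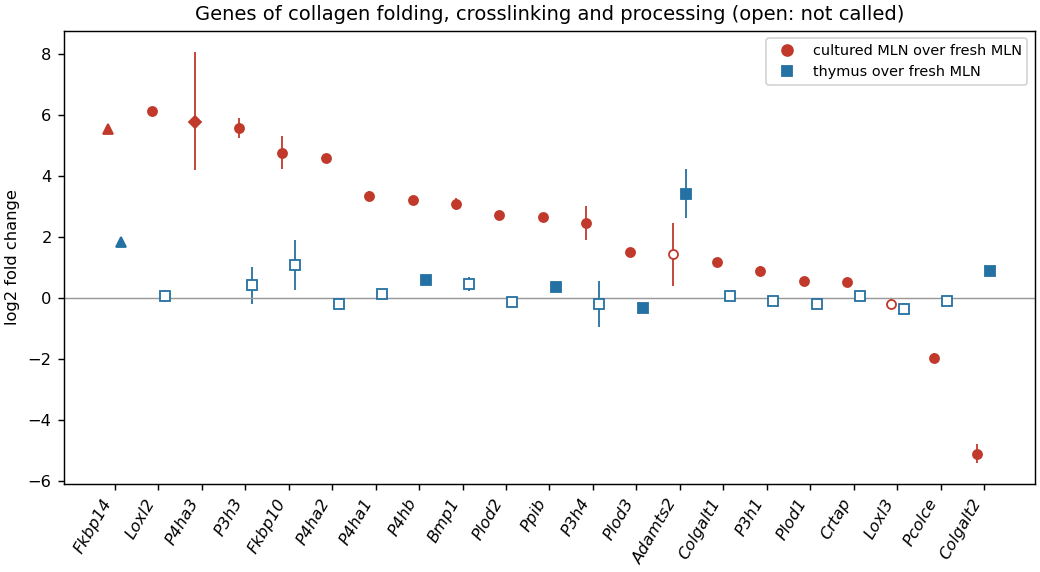
Log2 fold change of the 21 tested genes of collagen folding, crosslinking and processing in cultured MLN against fresh MLN (red) and thymus against fresh MLN (blue), filled where called. Circles and squares are fitted values with SE, the diamond is a ratio of counts with its 95% counting interval, and triangles are bounds against a group with no count. Most red points lie above 0, most blue points lie near it, and Pcolce and Colgalt2 fall in cultured MLN.

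Of 20 basement membrane partners and non-integrin matrix receptors, 15 were tested, and 12 were higher and 2 lower in cultured MLN against fresh MLN (median 1.69), 11 higher and 2 lower against thymus (median 1.23), and 5 higher and 3 lower in thymus against fresh MLN (median -0.09). Over all genes tested the medians were -0.01, -0.06 and 0 in the same order, with 77.6%, 72.7% and 47.3% called. Nid1, the nidogen that links laminin gamma 1 to collagen IV, had 56.7 and 60.5 CPM in cultured MLN, 0.173 and 0 CPM in thymus and 0.231 and 0.345 CPM in fresh MLN. It rose by 7.66 ± 0.22 in cultured MLN against fresh MLN and 9.30 ± 0.26 against thymus. Nid2 rose by 6.42 ± 0.34 and 7.57 ± 0.38 in the same comparisons. Hspg2, which encodes perlecan, stayed low, with 0.211 and 0.276 CPM in cultured MLN, 0.0493 and 0.0532 CPM in thymus and 0.128 and 0.159 CPM in fresh MLN. Of the collagen IV chains, Col4a1 held 35 counts and Col4a2 14 counts over all 6 libraries, and neither was tested. Bcam, a receptor for laminin alpha 5, averaged 52.3 ± 4.35 CPM in cultured MLN, 0.485 ± 0.0463 CPM in thymus and 0.576 ± 0.124 CPM in fresh MLN, a change of 6.50 ± 0.15 against fresh MLN and 6.74 ± 0.16 against thymus. In thymus against fresh MLN, Lair1, an inhibitory collagen receptor, was higher (1.63 ± 0.17), and Sdc4 (-2.38 ± 0.12) and Agrn (-0.57 ± 0.08), both heparan sulfate proteoglycans, were lower.

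Of 30 integrin activators and adhesion adaptors, 27 were tested, and calls went both ways: 15 higher and 8 lower in cultured MLN against fresh MLN (median 0.32), 11 higher and 11 lower against thymus (median 0.03), and 14 higher and 5 lower in thymus against fresh MLN (median 0.31). All genes tested had medians of -0.01, -0.06 and 0 and 77.6%, 72.7% and 47.3% called. Rasgrp2, the exchange factor that turns on Rap1 for integrin activation in platelets and leukocytes, had 5.31 and 4.93 CPM in cultured MLN, 445 and 442 CPM in thymus and 205 and 243 CPM in fresh MLN. It was 43.8-fold lower in cultured MLN than in fresh MLN (-5.45 ± 0.11), 86.7-fold lower than in thymus (-6.44 ± 0.11) and higher in thymus than in fresh MLN (0.99 ± 0.08). Rap1a, a Rap GTPase, was higher in cultured MLN than in fresh MLN (1.45 ± 0.07). Bcar1, the adhesion scaffold p130Cas, averaged 20.5 ± 0.651 CPM in cultured MLN, 0.0902 ± 0.0229 CPM in thymus and 0.0257 ± 0.0363 CPM in fresh MLN, with 2 counts in fresh MLN, a ratio of 784 (95% counting interval 217 to 6482); against thymus the change was 7.78 ± 0.28. Actn1, an actin crosslinker of adhesion sites, was higher in thymus than in fresh MLN (2.72 ± 0.20) and lower in cultured MLN than in thymus (-2.11 ± 0.19), and Flna, the filamin that binds integrin tails, was higher in thymus than in fresh MLN (1.21 ± 0.10).

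Of 20 integrin ligands other than laminins and collagens, 15 were tested, with 8 higher and 6 lower in cultured MLN against fresh MLN (median 1.34), 9 higher and 6 lower against thymus (median 1.57), and 4 higher and 4 lower in thymus against fresh MLN (median -0.30), beside medians of -0.01, -0.06 and 0 and 77.6%, 72.7% and 47.3% called over all genes tested. Edil3, a ligand of alpha V with beta 3 or beta 5, averaged 73.7 ± 12.2 CPM in cultured MLN, 3.53 ± 0.48 CPM in thymus and 0.353 ± 0.0103 CPM in fresh MLN, a change of 7.69 ± 0.19 against fresh MLN. Spp1, osteopontin, averaged 13.7 ± 0.184 CPM in cultured MLN, 0.037 ± 0.0523 CPM in thymus and 0.104 ± 0.0345 CPM in fresh MLN, a change of 7.0 ± 0.32 against fresh MLN and a ratio of 358 (95% counting interval 122 to 1739.8) against the 3 counts of thymus. Icam5 (5.24 ± 0.27) and Adam15 (4.87 ± 0.09) were higher in cultured MLN than in thymus. Icam1, the ligand of LFA-1, was lower in thymus than in fresh MLN (-1.70 ± 0.13), as was Icam2 (-0.49 ± 0.07), and Mfge8, a ligand of alpha V integrins, was higher (0.50 ± 0.11).

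Of 20 matrix proteases and their inhibitors, 14 were tested, with 10 higher and 2 lower in cultured MLN against fresh MLN (median 1.88), 8 higher and 3 lower against thymus (median 1.64), and 5 higher and 2 lower in thymus against fresh MLN (median 0.35), where all genes tested had medians of -0.01, -0.06 and 0 and 77.6%, 72.7% and 47.3% called. Timp3, an inhibitor bound to the matrix, averaged 87.8 ± 15.4 CPM in cultured MLN, 0.237 ± 0.222 CPM in thymus and 0.143 ± 0.0151 CPM in fresh MLN, a rise of 9.22 ± 0.26 against fresh MLN and 8.48 ± 0.24 against thymus. Timp2 went the other way, with 2.57 ± 1.02 CPM in cultured MLN, 42.6 ± 2.78 CPM in thymus and 10.6 ± 0.173 CPM in fresh MLN, lower in cultured MLN by -2.06 ± 0.18 against fresh MLN and -4.06 ± 0.17 against thymus, and higher in thymus than in fresh MLN by 2.01 ± 0.14. Adam8, a membrane metalloprotease of leukocytes, averaged 1053 ± 4.96 CPM in cultured MLN, a rise of 4.18 ± 0.10 against fresh MLN and 4.52 ± 0.11 against thymus. In thymus against fresh MLN, Adam8 (-0.34 ± 0.10) and Mmp25 (-0.59 ± 0.13), a membrane-anchored metalloprotease of neutrophils, were the 2 lower ones.

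Markers of cells that usually make laminins and collagens were measured in the same libraries. Their counts of calls stand beside 77.6% of all genes tested called in cultured MLN against fresh MLN (39.4% higher, 38.1% lower). Against thymus the share of all genes called was 72.7% (34.8% higher, 37.8% lower). A marker with hardly a count outside cultured MLN passed the filter through those libraries, so its call had to follow. Of 12 fibroblast and mesenchymal markers, 7 were tested and 4 were higher and 2 lower in cultured MLN against fresh MLN and likewise against thymus; the list summed to 363 to 370 CPM in cultured MLN, 67.5 to 68.6 CPM in thymus and 52.2 to 55.4 CPM in fresh MLN libraries. Most of the cultured sum was Gsn, an actin-severing protein that is not restricted to fibroblasts, with 358 and 348 CPM in cultured MLN, 9.27 and 8.72 CPM in thymus and 2.16 and 1.94 CPM in fresh MLN. Pdgfrb, the other leading gene of the list, went the opposite way, with 6.7 and 10.1 CPM in cultured MLN, 54.1 and 55.3 CPM in thymus and 43.8 and 46.5 CPM in fresh MLN. Pdgfra and Dcn, which define fibroblasts more closely, reached at most 0.221 and 0.211 CPM in any library, Mfap5 was at 0 in all, and Lum had 3.11 and 1.74 CPM in cultured MLN, 0 and 0 CPM in thymus and 0 and 0 CPM in fresh MLN. Pdpn had 0.362 and 1.19 CPM in cultured MLN and 0 CPM in all uncultured libraries. Fbln1 had 0.724 and 0.579 CPM in cultured MLN, 0.0986 and 0.0798 CPM in thymus and 0 and 0.0266 CPM in fresh MLN. Fap went the other way, with 0.211 and 0.303 CPM in cultured MLN, 3.25 and 4.04 CPM in thymus and 5.83 and 6.24 CPM in fresh MLN. Of 12 endothelial markers, 5 were tested, with 3 higher and 1 lower in cultured MLN against fresh MLN; the list summed to 162 to 165 CPM in cultured MLN, 135 to 143 CPM in thymus and 101 to 113 CPM in fresh MLN libraries, mostly Pecam1, which leukocytes also express, and then Egfl7, with 6.73 and 6.62 CPM in cultured MLN, 1.7 and 2.45 CPM in thymus and 0.334 and 0.159 CPM in fresh MLN. Esam, an adhesion molecule of endothelium and platelets, was also higher in cultured MLN, with 2.72 and 3.14 CPM in cultured MLN, 0.246 and 0.133 CPM in thymus and 0.128 and 0.0531 CPM in fresh MLN, and Flt4 was lower. Cdh5, Kdr, Tie1, Lyve1, Emcn and Cldn5 were at 0 in both cultured libraries and Tek at no more than 0.0551 CPM. Of 10 epithelial markers, 4 were tested, with 3 higher and 1 lower in cultured MLN against fresh MLN; the list summed to 7.996 to 10.5 CPM in cultured MLN, 16.4 CPM in both thymus libraries and 15.1 to 19.7 CPM in fresh MLN libraries. Cdh1, the lower one, led in uncultured libraries but had only 0.573 and 0.524 CPM in cultured MLN. Epcam led there, at 4.8 and 6.67 CPM in cultured MLN, 2.12 and 2.61 CPM in thymus and 1.95 and 1.54 CPM in fresh MLN. Krt18 had 1.84 and 2.37 CPM in cultured MLN, 0.246 and 0.558 CPM in thymus and 0.0514 and 0.0797 CPM in fresh MLN. Krt19 had 0.724 and 0.772 CPM in cultured MLN and 0 CPM in all uncultured libraries, and Krt14 was at 0 in all.

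Of 10 mast cell and basophil markers, 4 were tested, with 3 higher and 1 lower in cultured MLN against fresh MLN. Over all genes tested 77.6% were called there (39.4% higher, 38.1% lower), a share that stands beside each marker count that follows. The mast cell and basophil list summed to 595 to 881 CPM in cultured MLN, 117 to 122 CPM in thymus and 24.5 to 28.5 CPM in fresh MLN libraries. The cultured sum was almost all Mcpt8, with 588 and 866 CPM in cultured MLN, 0.246 and 0.239 CPM in thymus and 0.231 and 0.186 CPM in fresh MLN. Cpa3, a carboxypeptidase of mast cells and basophils, had 0.0905 and 0.11 CPM in cultured MLN, 117 and 121 CPM in thymus and 24 and 28.2 CPM in fresh MLN, and Mrgprb2 was at 0 in all. Of 10 markers of NK cells and ILC1, 2 were higher, Gzma and Prf1, and 8 lower in cultured MLN against fresh MLN. Gzma, a granule protease, had 94.2 and 188 CPM in cultured MLN, 39.2 and 33.9 CPM in thymus and 36.2 and 32.8 CPM in fresh MLN, and Prf1, perforin, had 52.8 and 61.4 CPM in cultured MLN, 5.57 and 4.68 CPM in thymus and 17.8 and 15.3 CPM in fresh MLN, whereas Ncr1, an activating receptor of NK cells, had 0 and 0.0827 CPM in cultured MLN, 0.813 and 0.957 CPM in thymus and 6.63 and 7.25 CPM in fresh MLN. This list summed to 147 to 250 CPM in cultured MLN, 57.6 to 59.5 CPM in thymus and 91.4 to 95.2 CPM in fresh MLN libraries and was mostly those 2 genes after culture. Of 10 T cell markers, 9 were tested and 7 were lower and none higher in cultured MLN against fresh MLN; they summed to 79.96 to 90.5 CPM in cultured MLN, 200.2 to 200.6 CPM in thymus and 182 to 184 CPM in fresh MLN libraries, led by Themis and Cd3e. Of 10 B cell markers, 6 were tested, 2 higher and 2 lower in the same comparison, with sums of 117 to 130, 78.5 to 84.8 and 157 to 202 CPM in cultured MLN, thymus and fresh MLN, led by Ighm and Cd79b. Of 10 neutrophil and eosinophil markers, 5 were tested, 1 higher and 3 lower, with sums of 0.772 to 1.09, 2.39 to 2.77 and 2.31 CPM in that order of groups, led by S100a9 and S100a8 in uncultured libraries. Of the 10 ILC2 and sort markers, all tested, 6 were higher and 4 lower in cultured MLN against fresh MLN; the most abundant, Il2ra, the IL-2 receptor alpha chain, had 7901 and 7761 CPM in cultured MLN, 892 and 839 CPM in thymus and 814 and 715 CPM in fresh MLN. The part of any of these cells in the levels of Lama5, Col18a1 or the other chains was not tested.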

How the data were processed

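RNA of sorted ILC2 was sequenced after stranded mRNA library preparation, per the labels' protocols. The files hold raw counts per Ensembl gene, as deposited. The authors counted reads with HTSeq 0.5.3p9 on mm9 (NCBIM37), per the submitters' processing notes; aligner, annotation release and strand use are each not given in the sources used here. Symbols came from GENCODE M21 (32919 of 37991 identifiers matched), as did exon lengths and gene order; no coordinates were converted. One edgeR 4.0.16 quasi-likelihood fit (R 4.3.3, limma 3.58.1) covered all 6 libraries, with TMM factors, the default filter on low counts, 3 residual degrees of freedom among libraries and Benjamini-Hochberg adjustment over 16231 genes; SE is the log2 fold change over the square root of F. With 2 libraries a group, no permutation of libraries can reach 0.05. Intervals and floors (3 counts over a group) cover counting error only. Replicates differed beyond counting noise (chi-square per degree of freedom 8.36 to 13.5), so no libraries were merged; this does not show that they came from separate animals.

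Members with a mean of at least 1 CPM in a group were named in full, other called members briefly, and the rest by range; of each list, up to 3 called genes a comparison, the largest changes among those of 5 CPM or more, were named, plus the 2 leading markers of a list, markers at 0, Id1, Gata3, Il1rl1 and Thy1. Pdgfra, Dcn, Lum, Pf4, Serpinh1, Col1a2, Col3a1, Fscn1, Ncr1, Esam, Flt4, Tek, Cdh5, Kdr, Tie1, Lyve1, Emcn, Cldn5 and the chromosome neighbours were named outside this rule after their values were seen. The same holds for Pdpn, Fbln1, Fap, Krt18, Krt19, Hspg2, Col4a1 and Col4a2. A member of the families that the rule names is not reported here, although counts and sums include it. Members and lists were chosen with earlier results of these data known. The 15 alternatives included RLE, upper-quartile and no scaling factors, other filters, DESeq2 1.42.0, a test against a 2-fold change, a block on the replicate number and leaving out each library. Promoters are from RefSeq (GRCm38.p6).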

Additional observations from a re-analysis of the deposited data

How the results depend on the processing

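No called change of the 49 tested genes reversed in any of the 15 alternatives. Calls were lost, however. By DESeq2, Itgax and Lamb2 lost theirs in cultured MLN against fresh MLN, and Col15a1 and Col5a1 in cultured MLN against thymus. In thymus against fresh MLN, Col10a1, Col27a1, Itgal and Itga11 lost theirs by DESeq2. Of all genes tested, DESeq2 called 73.1%, 67.6% and 42.2% in the same order. Requiring at least 5 CPM in 2 libraries left 27 of the genes. Of these, 14 were higher in cultured MLN against fresh MLN and 15 higher in cultured MLN against thymus. In thymus against fresh MLN, 8 were higher and 8 lower. Of all 11291 genes left by this filter, 9515, 9033 and 6426 were called in the same order. In both cultured comparisons all 27 had the same call as with the default filter. Tested against a 2-fold change, 2 were higher and 3 lower in thymus against fresh MLN, and among all genes 1298 were called there, 5676 in cultured MLN against fresh MLN and 4455 in cultured MLN against thymus. Leaving out 1 library gave 7 to 10 genes lower in thymus against fresh MLN, 7 without thymus replicate 1 or fresh MLN replicate 1, beside 13 with all libraries. Library totals alone moved the median log2 fold change of all genes by -0.22 in cultured MLN against fresh MLN and -0.26 against thymus, and the share of calls that were higher to 41.8% and 35.1%, beside 50.8% and 47.9%. Samples with the same replicate number had deviations with correlations of 0.021, 0.034 and 0.115, and with 2 numbers the data do not settle whether the numbers pair the samples. With a replicate block the counts of the 49 were unchanged in every comparison (26 higher and 16 lower, 27 and 15, and 14 and 13, in cultured MLN against fresh MLN, cultured MLN against thymus and thymus against fresh MLN), although Itga4 gained and Itga11 lost its call in thymus against fresh MLN, and all genes called were 12738, 11944 and 8049. The cause of these differences was not tested. Without any filter on low counts, 55.6%, 51.4% and 33.2% of genes were called in the same order.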
